A study of Homo sapiens with 6 samples.

Results

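The R-loop peaks described here hold a G-quadruplex motif on the strand to which the peak was assigned, and are called the set here. The motif is 4 runs of 3 or more G separated by 1 to 7 bases of any kind, read 5′ to 3′ in the hg19 sequence of the peak strand. Of 10231 R-loop peaks in untreated HEK293T cells, 1864 held it, which is 18.2% (95% Wilson interval 17.5% to 19.0%). Of 11085 peaks in N2-heptynyl-dG-treated cells, 2138 held it, which is 19.3% (18.6% to 20.0%). Together these are 4002 of 21316 peaks. In 633 untreated and 790 treated peaks of this set a motif also lay on the opposite strand. They were compared with peaks that hold the motif on the opposite strand only, 1783 untreated and 2158 treated, and with peaks that hold none, 6584 untreated and 6789 treated.

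HEK293T is a human embryonic kidney cell line, here wild type. The cells were left untreated or were given 10 μM N2-heptynyl-dG, a deoxyguanosine that is built into genomic DNA and carries a heptynyl group on its minor-groove amine, for 3 h. All cells then received 5 mM N3-kethoxal for 10 min, and the labeled single-stranded DNA was enriched and sequenced with its strand kept (spKAS-seq), from 2 samples of each condition beside 2 inputs. There is 1 list of peaks per condition, with a chromosome, start, end and strand for each peak and no height or p-value. The spread between replicates is therefore unknown. The intervals given, also those on differences between the lists, are counting error over peaks only and do not test the conditions. The depth behind each peak is likewise unknown. Peaks are in steps of 250 bp with few exceptions, and chromosome Y, which is masked over more than 50% of each peak in the reference used, contributed 11 untreated and 12 treated peaks and no peak of the set.

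A G-quadruplex is a stack of planar tetrads, each made of guanines from separate runs of a single strand and held by Hoogsteen pairs around a potassium or sodium ion. In an R-loop the nascent RNA pairs with the template, and the displaced non-template strand is free to fold in this way if it is rich in G. Promoters, 5′ ends of genes and telomeres are the known places of such sequences in the human genome. N3-kethoxal reacts with the Watson-Crick face of unpaired guanine, a face that also takes part in a tetrad. A motif is a match of letters and does not show that the strand was folded.

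Examples of the motifs are shown here on the peak strand, with the G runs of each in capitals. The first are GC-rich motifs at promoters and gene starts. LMF2, a lipase maturation factor of the endoplasmic reticulum, has the promoter peak with most motifs in the untreated list, 7 in 750 bp, and the peak has the same borders in the treated list. The motifs printed for TUBB4B (a β-tubulin), VEGFA (the angiogenic growth factor), KIT (the receptor of stem cell factor) and NRAS (a small GTPase) were chosen for the number of motifs in the peak (TUBB4B) or from a list of genes known for G-quadruplexes (the others).
LMF2 promoter, chr22:50946372-50946488, minus strand, 3 motifs: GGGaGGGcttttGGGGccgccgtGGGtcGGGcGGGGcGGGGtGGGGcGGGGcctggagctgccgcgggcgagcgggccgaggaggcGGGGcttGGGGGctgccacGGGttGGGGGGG
TUBB4B, chr9:140136043-140136074, plus strand: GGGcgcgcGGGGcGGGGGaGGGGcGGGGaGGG
VEGFA promoter, chr6:43737860-43737890, plus strand: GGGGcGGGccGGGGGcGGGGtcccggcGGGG
KIT promoter, chr4:55524002-55524021, plus strand: GGGcGGGcgcgaGGGaGGGG
KIT promoter, chr4:55524052-55524073, plus strand: GGGaGGGcgctGGGaggaGGGG
NRAS start, chr1:115259484-115259501, minus strand: GGGaGGGGcGGGtctGGG

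The other examples, from a small part of the set, are the telomere repeat TTAGGG and its variants, at chromosome ends and at a few inner sites, in which motifs follow each other closely, with gaps in some. The stretch on chromosome 20 lies inside the annotated PCMTD2 gene and that on chromosome 11 inside BET1L, a Golgi SNARE gene. That on chromosome 1 lies within 20 kb of the chromosome end.
Chromosome 1, chr1:249239749-249239819, plus strand, 3 motifs: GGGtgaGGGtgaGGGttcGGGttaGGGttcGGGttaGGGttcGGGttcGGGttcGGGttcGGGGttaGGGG
Chromosome 20, chr20:62918304-62918378, plus strand, 3 motifs: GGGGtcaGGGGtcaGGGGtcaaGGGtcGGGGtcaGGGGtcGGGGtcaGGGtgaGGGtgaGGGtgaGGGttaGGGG
Chromosome 11, chr11:175979-175999, minus strand: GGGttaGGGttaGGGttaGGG

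Most peaks of the set held a single motif. This was so in 77.4% of the untreated and 77.6% of the treated ones, while 17.2% and 17.0% held 2, 3.86% and 3.60% held 3, and 1.56% and 1.82% held 4 or more. The motifs number 2598 and 3010 on the peak strand, with a median length of 25 bp in both lists and a longest of 41 bp. A G run of 4 or more bases was present in 81.9% of the untreated and 81.5% of the treated motifs. On the opposite strand of all peaks there were more motifs, 3511 and 4326, also with a median of 25 bp, and runs of 4 or more were present in 89.3% and 89.6%.

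R-loop peaks of 500 bp were richer in the motif than genome windows of that width. Among peaks of 500 bp, 14.9% of 4209 untreated (13.9% to 16.0%) and 16.2% of 4710 treated peaks (15.2% to 17.3%) held it on the peak strand, whereas 2.71% of all 500-bp windows of chromosomes 1 to 22 and X held it on a given strand. Within promoters (midpoint no more than 1000 bp before or 100 bp after a start site), the values were 17.3% (15.9% to 18.7%) and 18.5% (17.1% to 19.9%) against 8.14% of windows. In gene bodies they were 12.3% (10.3% to 14.6%) and 13.1% (11.1% to 15.3%) against 2.51%, and between genes 6.48% (4.28% to 9.70%) and 8.62% (6.20% to 11.9%) against 2.16%. Terminal regions (no more than 100 bp before or 1000 bp after the end of a transcript) had 9.24% (6.18% to 13.6%) and 12.6% (9.11% to 17.2%) against 4.15%. In each class the interval at 500 bp lies above the share of windows. The windows were matched for width and class but not for GC content. Its median was 59.6% in untreated and 60.2% in treated peaks of 500 bp. The part of GC content in this excess was not tested. Treated terminal peaks did not stand clear of windows at greater widths, with 8.42% (5.68% to 12.3%) against 6.01% at 750 bp and 11.1% (7.45% to 16.2%) against 7.80% at 1000 bp. At 500 bp the share on the opposite strand was higher still in each class, from 11.1% between genes in untreated cells to 27.6% at promoters in treated cells.

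**Figure D1:**
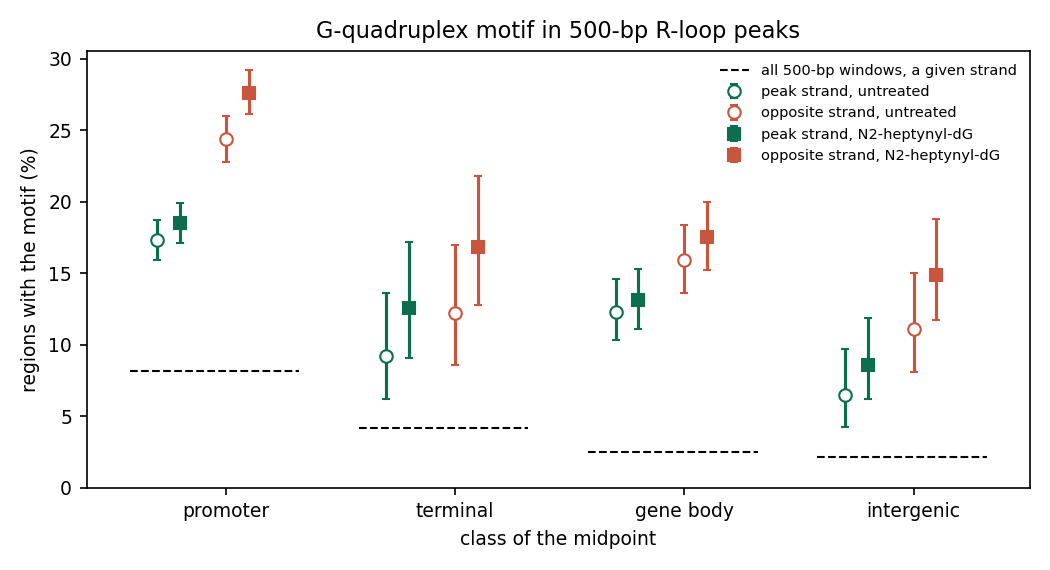
Percentage of 500-bp R-loop peaks (y axis) that hold the motif on the peak strand (green) or on the opposite strand (orange), by class of the peak midpoint (x axis), for untreated (open circles) and N2-heptynyl-dG-treated cells (filled squares), with 95% Wilson intervals. Dashed lines give the percentage of all 500-bp genome windows of the class on a given strand, which run from 2.16% between genes to 8.14% at promoters and lie below every point. The windows are not matched for GC content.

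The motif was less common on the peak strand than on the other. Over all widths, 23.6% of untreated (22.8% to 24.4%) and 26.6% of treated peaks (25.8% to 27.4%) held it on the opposite strand, against the 18.2% and 19.3% on the peak strand. Of the 3014 untreated peaks with the motif on 1 strand only, 1231 had it on the peak strand, 40.8% (39.1% to 42.6%). Of 3506 treated peaks, 1348 did, 38.4% (36.9% to 40.1%). An even split would give 50%. At promoters these shares were 39.6% (37.4% to 41.9%) and 37.8% (35.8% to 39.9%), and elsewhere 42.8% (40.0% to 45.6%) and 39.5% (36.9% to 42.2%). In the classes of width up to 1500 bp, the untreated shares lay between 36.6% and 43.6% and the treated shares between 37.6% and 38.3%. Above 1500 bp they were 46.6% (40.8% to 52.5%) and 45.2% (39.4% to 51.0%), so that these intervals include the even split. Single chromosomes had fewer such peaks on the peak strand than on the opposite strand in 22 of 23 cases in untreated cells, chromosome 18 being the exception with 20 against 19, and in 23 of 23 in treated cells.

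GC skew, the surplus of G over C on the peak strand as a fraction of both, moves with the strand of the motif by construction, and its median over all peaks was 0 in untreated and -0.0132 in treated cells. Among the 4155 untreated peaks with a skew from -0.05 to 0.05, 423 had the motif on the peak strand only and 620 on the opposite strand only, a share of 40.6% on the peak strand (37.6% to 43.6%). In the 4399 treated peaks of this kind, the numbers were 534 and 678, a share of 44.1% (41.3% to 46.9%). The lower number on the peak strand was therefore also found among peaks whose strands hold nearly as many G. Runs of 3 or more G showed the same order over all peaks, with 18.5 per kb on the peak strand and 20.4 on the opposite strand in untreated cells, and 19.0 and 21.9 in treated cells.

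Around the peak midpoint, the share on the peak strand was lower than that on the opposite strand near the middle and, at promoters, also before it. The bins lie at fixed distances whatever the width of the peak, so many of them hold flanking sequence. A peak of 500 bp, the width of 4209 of 10231 untreated and 4710 of 11085 treated peaks, ends 250 bp from its midpoint. Only 154 of 5121 untreated and 169 of 5754 treated promoter peaks were wider than 1500 bp and so reached beyond 750 bp. In bins of 250 bp around the midpoint, read along the peak strand, the motif was most frequent on the peak strand from 500 to 250 bp before the midpoint, in 9.14% of untreated (8.60% to 9.72%) and 10.2% of treated peaks (9.66% to 10.8%). From the midpoint to 250 bp after it the share was 5.30% (4.89% to 5.76%) and 5.79% (5.37% to 6.24%). On the opposite strand the highest share was in the 250 bp before the midpoint, 10.9% (10.4% to 11.6%) and 12.8% (12.1% to 13.4%), and in the 250 bp after it the share was 8.18% (7.67% to 8.73%) and 9.77% (9.23% to 10.3%). From 250 to 500 bp after the midpoint both strands were level over all peaks, with 5.94% and 5.72% in untreated and 6.59% and 6.55% in treated cells. The classes differed in this bin. Promoter peaks had 8.08% on the peak strand against 6.91% in untreated and 9.18% against 7.86% in treated cells. Gene-body peaks had 3.83% against 5.12% and 4.12% against 5.59%, and all these intervals overlap. Peaks between genes had 3.25% against 3.06% in untreated cells. In treated cells they had 1.99% (1.40% to 2.81%) against 3.85% (3.00% to 4.92%). At promoters alone the 250 bp after the midpoint held the motif on the peak strand in 7.01% (6.34% to 7.74%) and 7.68% (7.02% to 8.40%), and on the opposite strand in 10.1% (9.26% to 10.9%) and 11.9% (11.1% to 12.8%). Promoter peaks were lower on the peak strand also from 1000 to 750 bp before the midpoint, with 7.44% (6.75% to 8.19%) against 9.33% (8.57% to 10.2%) in untreated and 7.74% (7.07% to 8.45%) against 9.68% (8.94% to 10.5%) in treated cells. At promoters the order had turned by 250 to 500 bp after the midpoint, and from 500 to 750 bp after it the intervals separated. There the peak strand of promoter peaks had 5.86% (5.25% to 6.54%) and 6.64% (6.03% to 7.31%), against 4.55% (4.01% to 5.16%) and 5.18% (4.64% to 5.78%) on the other. In gene bodies, the bin from 500 to 250 bp before the midpoint held more on the peak strand, in 8.71% (7.65% to 9.90%) against 7.33% (6.36% to 8.45%) of untreated and 10.4% (9.25% to 11.6%) against 8.08% (7.09% to 9.19%) of treated peaks, with intervals that overlap in untreated cells only. From the midpoint to 250 bp after it the peak strand was lower in gene bodies too, at 4.33% against 7.46% and 4.35% against 9.09%.

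**Figure D2:**
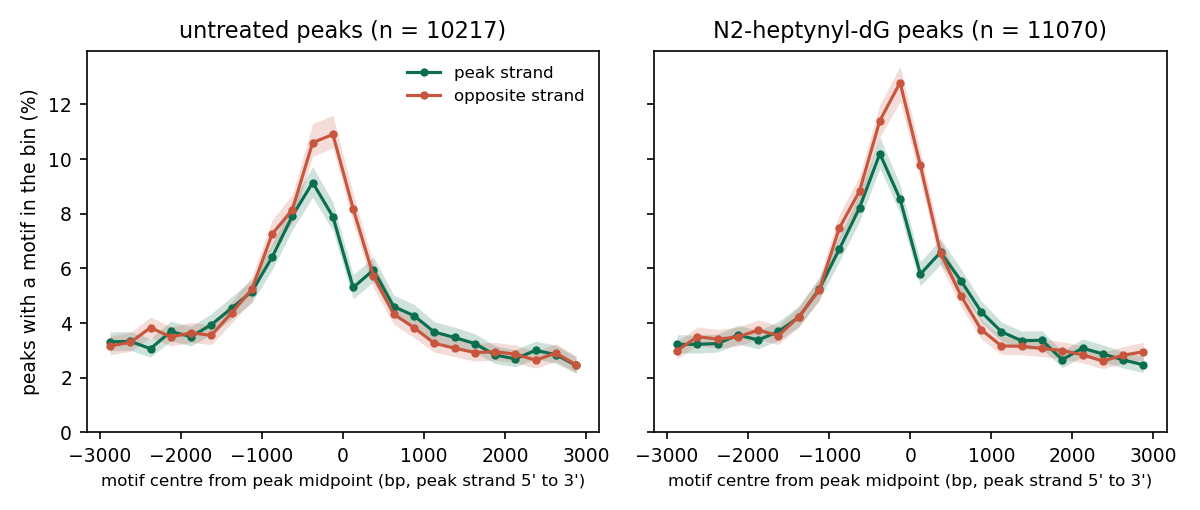
Percentage of peaks with a motif centre in each 250-bp bin (y axis) by distance from the peak midpoint (x axis, bp, 5′ to 3′ on the peak strand), on the peak strand (green) and the opposite strand (orange), for 10217 untreated (left) and 11070 treated peaks (right). Shading is the 95% Wilson interval, and in both panels the intervals separate from 500 bp before to 250 bp after the midpoint, where the peak strand is lower, though in treated peaks they all but touch from 500 to 250 bp before it. In untreated peaks they also separate from 2500 to 2250 bp before it. The bins are at fixed distances, and the outer ones lie beyond the borders of most peaks.

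The set lay at promoters more than peaks with no motif did. Promoters held 59.9% of the set in untreated cells (57.6% to 62.1%) and 63.1% in treated cells (61.0% to 65.1%), against 43.8% (42.7% to 45.1%) and 44.6% (43.4% to 45.8%) of peaks without the motif. Peaks with the motif on the opposite strand only were placed much like the set, with 62.7% (60.4% to 64.9%) and 63.9% (61.8% to 65.9%) at promoters. Gene bodies held 21.0% and 20.1% of the set, terminal regions 9.66% and 8.89%, and the space between genes 9.50% and 7.95%. The median GC content of the set was 61.8% in untreated and 63.0% in treated cells, near the 61.7% and 63.1% of peaks with the motif on the opposite strand only and above the 52.5% and 53.2% of peaks with none. By chromosome the share of peaks in the set was lowest on chromosome 13 with 12.6% and highest on chromosome 16 with 23.9% in untreated cells, and the same chromosomes were the treated extremes with 14.0% and 24.9%.

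Peaks of the set ran with the gene more often than peaks in general at promoters, and in untreated gene bodies they did not. Of the 1169 untreated peaks of the set whose midpoint lay in coding genes of a single strand, 986 were on the gene's strand, 84.3% (82.2% to 86.3%), and of 1368 treated ones, 1146 were, 83.8% (81.7% to 85.6%). Over all such peaks the shares were 81.1% (80.1% to 82.1%) and 79.4% (78.4% to 80.4%). At promoters the set had 86.7% (84.1% to 88.9%) and 86.6% (84.2% to 88.6%), against 82.4% and 81.2% of all peaks there. In gene bodies it had 83.5% (79.0% to 87.1%) against 83.7% of all in untreated cells and 84.8% (80.7% to 88.2%) against 80.6% in treated cells. The remaining peaks, called terminal, are few and enter only the shares over all classes. Among them the set ran with the gene less often than all such peaks in treated cells, and more often in untreated cells. No interval was taken for these terminal peaks, so neither direction was set against counting error. Peaks of the set with motifs on both strands had 79.8% (75.6% to 83.4%) and 82.0% (78.5% to 85.1%) over all classes. Peaks were also split by the strand of the motif. At promoters, 88.8% (85.6% to 91.3%) of untreated and 87.6% (84.6% to 90.1%) of treated peaks with the motif on the peak strand only were on the gene's strand. Of those with it on the opposite strand only, 78.6% (75.5% to 81.5%) and 75.7% (72.9% to 78.4%) were. In gene bodies the untreated values were 85.5% (80.3% to 89.5%) and 83.5% (78.7% to 87.3%), with intervals that overlap. The treated values there were 85.5% (80.5% to 89.5%) and 76.2% (71.4% to 80.4%), with intervals that do not.

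Human genes carry more motifs on the non-template strand just after the start, so the peaks were also set against all 20048 coding start sites. The windows of 500 bp at all starts were spread over each range of distances in the way the peak midpoints are. R-loop peaks on the gene's strand with their midpoint up to 500 bp after a start held the motif in their central 500 bp on the peak strand in 20.1% of 1989 untreated (18.4% to 21.9%) and 20.8% of 2279 treated peaks (19.2% to 22.6%), below the 27.0% of all starts. On the opposite strand they held it in 23.8% (22.0% to 25.7%) and 27.3% (25.5% to 29.2%), above the 20.6% and 20.7% of all starts. From 500 to 1000 bp after the start the peak strand was at 15.0% (12% to 18.5%) against 18.7% in untreated and 16.1% (13.1% to 19.6%) against 18.9% in treated cells, and the treated interval includes the value of all starts. The opposite strand was at 26.4% (22.6% to 30.5%) and 29.6% (25.7% to 33.8%) against 14.1% and 14.2%. Farther on, from 1000 to 1500 bp after the start, both strands lay above all starts. The peak strand was at 16.9% of 166 untreated (11.9% to 23.3%) and 16.2% of 167 treated peaks (11.4% to 22.5%) against 10.7% and 10.8%, and the opposite strand at 28.3% (22.0% to 35.6%) and 27.5% (21.3% to 34.8%) against 8.79% and 8.89%. Peaks on the strand opposite to the gene, within 500 bp before the start, had the motif on their own strand in 14.0% of 1068 untreated (12.1% to 16.3%) and 16.5% of 1132 treated peaks (14.5% to 18.8%), against 17.9% and 17.8%, so that only the untreated interval lies below all starts. On their opposite strand these peaks had 20.4% (18.1% to 22.9%) and 22.1% (19.8% to 24.6%), above 16.4% and 16.3%. The set of all starts includes genes that are silent in these cells, and the part of gene activity in this difference was not tested.

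**Figure D3:**
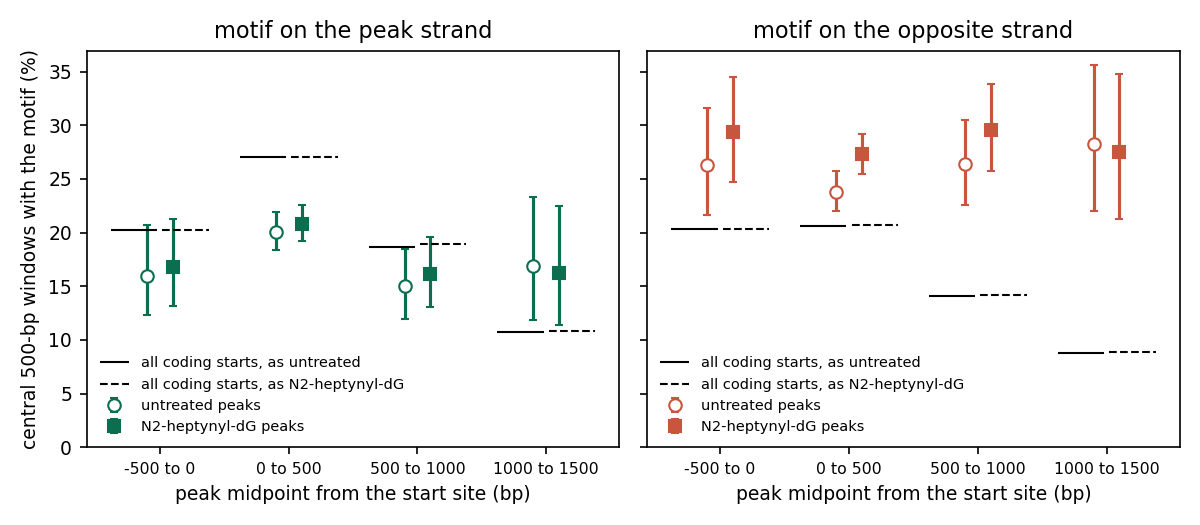
Percentage of gene-strand R-loop peaks (y axis) with the motif in their central 500 bp on the peak strand (left) and the opposite strand (right), by distance of the peak midpoint from the coding start site (x axis, bp), for untreated (open circles) and treated cells (filled squares), with 95% Wilson intervals. Short lines give the 500-bp windows at all 20048 coding starts, spread over each range as the midpoints of the untreated (solid) or treated peaks (dashed) are. Up to 500 bp after the start, peaks lie below the 27.0% lines on the peak strand and above the 20.6% and 20.7% lines on the opposite strand.

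Telomere repeats gave peaks with many motifs and were found on the peak strand alone. Telomeres are transcribed toward the chromosome end into TERRA, an RNA of UUAGGG repeats that can pair with the C-rich strand. At least 4 repeats in a row were present on the peak strand of 9 untreated and 14 treated peaks, and on the opposite strand of 0 in either list. The complement of the repeat holds no G, the base with which N3-kethoxal reacts. The label could therefore hardly give a peak on that strand of a repeat tract, and nothing is concluded from the 0. The reference holds 70 such loci on chromosomes 1 to 22 and X. Of the 16 within 20 kb of a chromosome end, 7 had an untreated and 10 a treated peak on the repeat strand. Of the other 54, 2 and 4 had such a peak. On chromosome 1, the peak at the end of the long arm held 26 motifs in untreated cells and 32 in treated cells, where it was wider. The peak in PCMTD2, chr20:62918304-62918803, held 15 in both lists. On chromosome 18, the peak that starts at 9751 held 10 motifs over 500 bp in untreated and 20 over 750 bp in treated cells. The peaks that the treated list alone had include those at the ends of chromosomes 15 and 21, with 10 and 6 motifs, and inside BET1L and TUBB8B (a β-tubulin gene near the end of chromosome 18), with 12 and 8. Repeats of this kind occur at every chromosome end, and with the aligner's default a read that fits several places is reported at 1 of them, so the number of telomeres behind these peaks is unknown.

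Some other peaks with many motifs overlapped coding genes. HNRNPH1, which encodes a protein that binds G-rich RNA, had 4 motifs in chr5:179049178-179050927 and was called terminal because a transcript ends nearby. TUBB4B had 3 in a peak of 3750 bp, and a peak of 3000 bp that overlaps JMJD4 and SNAP47, chr1:227915511-227918510, had 4. Of the untreated peaks of the set without a treated counterpart, those with most motifs, 4 each, were in GSDMA (a pore-forming gasdermin), at C1orf198 and at TOX, a thymocyte transcription factor. Among treated peaks without an untreated counterpart, CLN8, a protein of the endoplasmic reticulum, had 9 motifs in a promoter peak with a GC content of 80.5%, and NR2F2, the orphan nuclear receptor COUP-TFII, had 4.

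Of 14 genes known for G-quadruplexes at their start (MYC, VEGFA, KIT, BCL2, HRAS, NRAS, TERT, HIF1A, RET, PDGFA, PDGFRB, MYB, SRC and RB1), 5 had a peak that reaches into a promoter of the gene (any of its transcripts, wherever the midpoint) in untreated and 4 in treated cells, and 3 and 2 had one with the motif on the peak strand. VEGFA had the same peak in both lists, chr6:43737751-43738500, with 1 motif. KIT had the same promoter peak in both lists, chr4:55523987-55524486, with the 2 motifs printed above, and a further treated peak with its midpoint inside the gene, chr4:55524987-55525486, with 1. NRAS held its motif in the untreated peak, chr1:115258458-115259707. The treated peak there, chr1:115258708-115259207, was narrower and left it out. MYC, the proto-oncogene transcription factor, had 3 motifs on the opposite strand of its untreated promoter peak and 1 on that of its treated one, and none on the peak strand. HIF1A, the oxygen-regulated transcription factor, likewise had 2 on the opposite strand in each list. TERT and SRC had peaks elsewhere in the gene with no motif on the peak strand. A treated peak with 1 motif that falls in the annotated span of RB1, chr13:49107001-49107500, lies far from the RB1 start and beside the start of RCBTB2. The remaining 6 genes had no peak in either list.

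Across all 20098 coding genes, 28.2% had a promoter peak by the same rule in untreated and 30.9% in treated cells, and 7.22% and 8.33% had one of the set. Of the genes with a promoter peak, 25.6% and 27.0% had one of the set, beside 3 of 5 and 2 of 4 in the list of known genes, which is too short for a comparison.

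Proteins that bind or unwind G-quadruplexes were looked at as genes of their own. Of 21 (DHX36, DHX9, BLM, WRN, BRIP1, PIF1, RTEL1, ATRX, ERCC2, ERCC3, DDX5, DDX11, DDX21, NCL, CNBP, HNRNPA1, HNRNPA2B1, TOP1, MAZ, SP1 and RPA1), 13 had a peak that reaches into a promoter, by the same rule, in untreated and 12 in treated cells, and 4 and 3 had one of the set. Among all coding genes with a promoter peak, 25.6% and 27.0% had one of the set. The 4 of 13 and 3 of 12 here are too few for a comparison with these shares. The helicase genes DHX9 and DDX5 had a promoter peak of the set in both lists, with 1 and 2 motifs, and so did HNRNPA2B1, which encodes an RNA-binding protein, with 1. NCL, the gene of nucleolin, had 2 motifs in an untreated peak of 1500 bp, chr2:232328047-232329546, and 0 in the treated peak of 750 bp within it. MAZ, a zinc finger gene, had no peak in a promoter of its own. An untreated peak of 2000 bp with 1 motif, chr16:29821501-29823500, and a narrower treated peak within it with 0 lie over the end of MAZ and also overlap PRRT2. TOP1, which relaxes supercoils, had 2 motifs on the opposite strand of its gene-strand promoter peak, with the same borders in both lists. The motifs of TOP1 and HIF1A, on the strand opposite to the peak, had the same build as those printed above.
TOP1, chr20:39657808-39657828, minus strand opposite a plus-strand peak: GGGccGGGGctGGGGtcGGGG
HIF1A, chr14:62162599-62162618, minus strand opposite a plus-strand peak: GGGcGGGcaggcGGGcGGGG

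Among the genes in the study's expression measurements, GAPDH, the glycolytic enzyme used there for normalization only, had a promoter peak with 1 motif on each strand in both lists. ENTPD5 had a treated promoter peak with 1 motif on each strand and no untreated peak, and KBTBD6, CHERP and CLSPN had no peak of the set.

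Untreated peaks of the set lacked a counterpart in the other list less often than peaks with no motif, and no such difference was detectable at equal GC content. Over all peaks, 25.4% of untreated peaks had no treated peak overlapping by 1 bp or more on the same strand, and 30.8% of treated peaks had no untreated one. In the set these were 346 of 1864 untreated peaks, 18.6% (16.9% to 20.4%), and 595 of 2138 treated peaks, 27.8% (26.0% to 29.8%). Peaks with no motif had 29.3% (28.2% to 30.4%) and 31.8% (30.7% to 32.9%), and those with the motif on the opposite strand only 18.2% (16.5% to 20.0%) and 30.4% (28.4% to 32.3%). Wide peaks are found again more often. Standardised to the class and width of the set, the untreated share was 4.48 points lower in the set than in peaks with no motif (difference -4.48, interval -6.44 to -2.52), and the treated share was 2.28 points higher (0.257 to 4.30). With GC content added to the strata, the differences were 0.501 points (-2.23 to 3.23) and 1.23 points (-1.70 to 4.15), so that neither interval excludes 0.

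At promoters the treated difference at equal class and width was 4.64 points (1.97 to 7.30) and the untreated one -2.00 (-4.62 to 0.617), and outside promoters they were -1.76 (-4.79 to 1.28) and -8.19 (-11.1 to -5.26). With GC content in the strata all of these intervals include 0. Against peaks with the motif on the opposite strand only, which have nearly the same GC content, the set differed at equal class and width by 2.55 points in untreated cells (0.211 to 4.88) and by 0.877 in treated cells (-1.56 to 3.31). With GC content in the strata these were 2.44 (-0.249 to 5.13) and 0.710 (-1.94 to 3.36), and both intervals include 0.

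**Figure D4:**
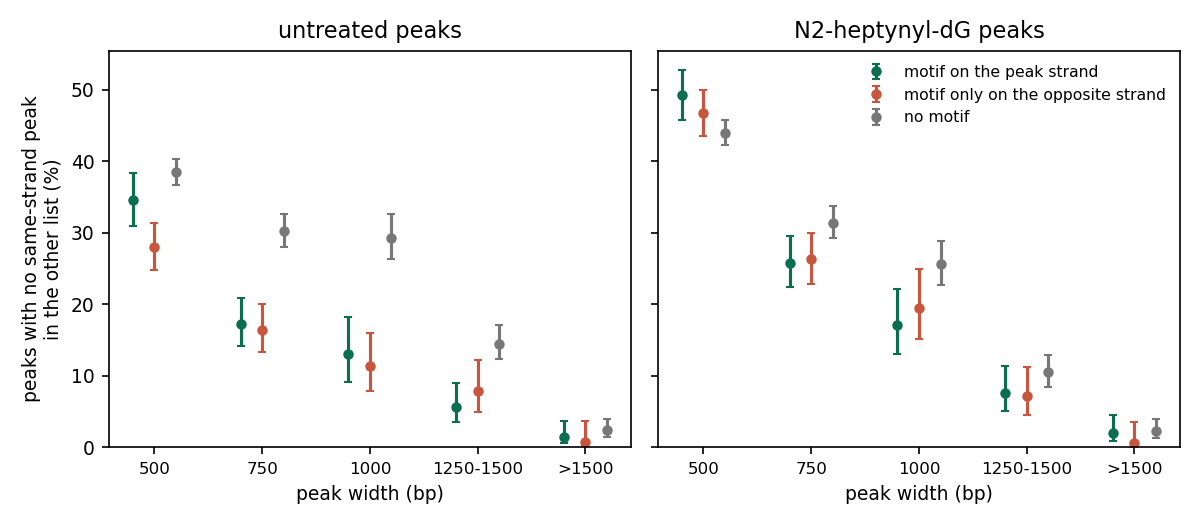
Percentage of peaks with no same-strand peak in the other list (y axis) by peak width (x axis, bp), for untreated (left) and treated peaks (right), with the motif on the peak strand (green), only on the opposite strand (orange) or absent (grey), with 95% Wilson intervals. In treated peaks of 500 bp the set stands at 49.2% and peaks with no motif at 44%, in untreated ones at 34.6% and 38.5%, and all fall with width.

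At 500 bp, 217 of 628 untreated peaks of the set had no counterpart, 34.6% (30.9% to 38.4%), against 38.5% of peaks with no motif (36.7% to 40.3%). In treated cells it was 376 of 764, 49.2% (45.7% to 52.8%), against 44% (42.2% to 45.8%). Within the treated set, peaks with motifs on both strands stood at 57.6% (50.6% to 64.3%). Those with it on the peak strand only had 46.3% (42.2% to 50.4%), which overlaps the interval of peaks with no motif. Peaks with the motif on the opposite strand only had 28% (24.8% to 31.3%) in untreated and 46.7% (43.5% to 49.9%) in treated cells. At promoters alone the shares at this width were 33.4% in the set (29.3% to 37.8%) and 31.2% with no motif (29.1% to 33.4%) in untreated cells, and 45.7% (41.7% to 49.8%) and 37.5% (35.3% to 39.8%) in treated cells. The treated promoter share was 41.4% (36.8% to 46.2%) with the motif on the peak strand only and 57% (49.2% to 64.4%) with it on both. With it on the opposite strand only the share was 42.9% (39.3% to 46.6%). At equal class the differences between the set and peaks with no motif at 500 bp were -1.09 points (-5.23 to 3.04) in untreated and 7.55 points (3.60 to 11.5) in treated cells. GC content was not in these strata. At this width its median was 65.8% in the untreated and 66.6% in the treated set, against 56.8% and 57.2% in peaks with no motif. The part of GC content in the differences at 500 bp was not tested. Above 1500 bp, 4 of 270 untreated and 5 of 255 treated peaks of the set had none.

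Peaks present in the treated list only held the motif more often than peaks present in the untreated list only. The share was 17.4% of 3411 treated-only peaks (16.2% to 18.8%) and 13.3% of 2596 untreated-only peaks (12.1% to 14.7%), a difference of 4.12 points (2.28 to 5.93). The motif on the opposite strand differed by more, 25.2% against 15.9%, a difference of 9.27 points (7.23 to 11.3). At promoters the peak-strand shares were 23% and 19.1%, a difference of 3.92 points (0.800 to 6.96), and elsewhere 12.2% and 9.09%, a difference of 3.07 points (0.942 to 5.18). The median GC content was 58.4% in treated-only and 53.5% in untreated-only peaks. At equal class, width and GC content the difference in the peak-strand share was 0.0901 points (-2.07 to 2.25). Over whole lists the treated share exceeded the untreated one by 1.07 points, with 1.65 points at promoters and 0.162 elsewhere, and at equal class, width and GC content it was -0.293 points. No interval is given for these, since 7635 of the 10231 untreated peaks overlap a treated peak on the same strand and the lists are not independent. With a single list per condition, a difference between conditions cannot be told apart from one between the samples or peak calls behind the lists.

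**Figure D5:**
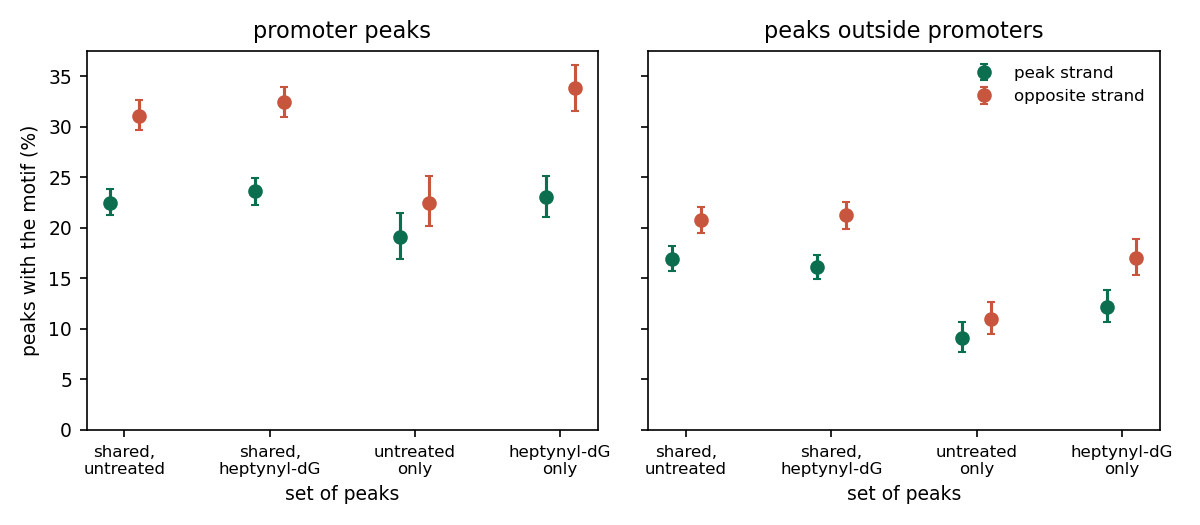
Percentage of peaks with the motif on the peak strand (green) or the opposite strand (orange) (y axis) in shared peaks of either list and in peaks of 1 list only (x axis), at promoters (left) and elsewhere (right), with 95% Wilson intervals. Untreated-only peaks have the lowest values in both panels, 19.1% and 9.09% on the peak strand, and shared peaks have 22.5% and 16.9% in the untreated list.

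Where a peak of each list overlapped a single peak of the other on the same strand, 7443 pairs in all, 1306 pairs held the motif on the peak strand of both, 158 in the untreated peak only, 187 in the treated peak only, and 5792 in neither. Widths were equal in 53.1% of the pairs with the motif in both and in 51.3% of those with it in neither. Among the former, the treated peak was wider in 309 and narrower in 303.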

How the data were processed

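Per the labels and the study's methods, spKAS-seq reads of HEK293T cells were trimmed with Trim Galore, aligned to hg19 by Bowtie2 at its default setting and cleared of duplicates with Picard, and the authors called R-loops from 2 replicates by an earlier procedure. Versions are not given in the sources used here. The deposited lists used here, 1 per condition, hold peak positions (start and end) and a strand. They are attached to replicate 1 of each condition, and what the strand stands for is not stated in them. Reads, tracks and inputs were not used here. The set, the gene lists and the comparisons were chosen with earlier results of these data known.

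Sequences were read from GRCh37 and searched on both strands for non-overlapping motifs. Peaks were placed by midpoint in promoter, terminal, gene body or intergenic class with GENCODE release 44 mapped to GRCh37. Peaks counted as shared from 1 bp of overlap on the same strand. Named are, per list, the 2 peaks of each class and the 3 unshared peaks with most motifs, and 3 fixed gene lists. Some of these peaks, sequences and genes are not reported here. Printed sequences leave out chromosome 8 and longer stretches of untranslated exons. Shares carry 95% Wilson intervals and differences 95% Newcombe or normal intervals. Standardised differences weight strata of class and width (and GC content) to the set. Motif search, overlap and standardisation were tested on simulated data. The tools were pysam 0.24.0, samtools 1.23.1, pandas 2.3.3, numpy 2.4.6 and scipy 1.17.1 under Python 3.11.15.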

Additional observations from a re-analysis of the deposited data

How the results depend on the processing

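Of 58 alternative values for 8 results, 36 stayed within the interval of the value reported, 20 moved outside it and 2 turned their sign. The share of untreated and treated peaks with the motif on the peak strand was 31.0% and 32.3% with loops of up to 12 bases, 5.89% and 6.31% with loops of up to 3, 12.1% and 13.1% in the central 500 bp, and 14.9% and 16.2% in peaks of 500 bp only. The difference between peak-strand-only and opposite-strand-only peaks, -5.40 points untreated and -7.31 treated, kept its sign under all alternatives run. It was -7.20 and -9.37 with loops of up to 12, -2.48 and -3.30 with loops of up to 3, and -3.27 in treated peaks with a skew near 0. The untreated share without a counterpart, against peaks with no motif, was -1.64 points with loops of up to 3, -1.09 in peaks of 500 bp only and 0.501 with GC content in the strata, and each of these intervals includes 0. The treated one was 4.43 in the central 500 bp and 7.55 in peaks of 500 bp only. The treated-only minus untreated-only share was 6.13 points with loops of up to 12, 1.42 with loops of up to 3 and 0.0901 with GC content in the strata, and the share over whole lists turned to -0.293 points with it. It was 0.412 points with loops of up to 3 and 1.29 in peaks of 500 bp only. For this share, intervals that take the overlapping lists as independent were used only to sort the alternatives. They include 0 for both of these values and not for the 1.07 points of the main setting. The interval of the treated share without a counterpart included 0 with loops of up to 3 (2.44), 50% reciprocal overlap (1.92), overlap on either strand (1.91), protein-coding genes only (1.77) and GC content in the strata (1.23). Fewer bases searched or a narrower motif lower the shares by construction. For the other moves the cause was not tested. With windows at all starts placed at the middle of each range instead, the untreated peak strand from 500 to 1000 bp was within reach of all starts (17.0%), the treated strand-opposed peaks lay below them (20.4%), and the untreated ones no longer lay above them on the other strand (18.5%). The spread windows, the strata with GC content, the skew limit and leaving out telomere repeats were chosen after seeing the data. Leaving out a replicate could not be run, since each list stands for a condition as a whole. No paired analysis was possible because the peak lists used here give 1 list per condition, with no list per replicate. Depth per peak is unknown and limits what can be said of single peaks.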
